A study of Mus musculus with 16 samples.

Results

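The fat tissue content of quadriceps muscle libraries was examined through 10 genes that mark fat cells, out of 41388 genes in the count table. The genes were *Adipoq*, *Lep*, *Retn*, *Cfd*, *Fabp4*, *Plin1*, *Cidec*, *Scd1*, *Car3* and *Pparg*, taken as the entries whose symbol equals one of these names, and all 10 were found once. Fat cells lie between and around muscle fascicles, store triglyceride in a lipid droplet and secrete hormones that act on other tissues. Muscle fibers also burn fatty acids, so that some enzymes of fat storage are made in both tissues. The depots beside a limb muscle can be white, which stores lipid, or brown or beige, which burns it for heat. A muscle sample carries RNA of the fat cells that lay within it or were dissected with it.

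Total RNA was sequenced from mouse quadriceps in 16 libraries, 4 in each of 4 groups. The *Mtm1* KO mouse lacks exon 4 of *Mtm1*, an X-linked gene for a lipid phosphatase whose loss causes myotubular myopathy, and WT mice were littermates on the same C57BL/6J background. WT + TAM and *Mtm1* KO + TAM mice received tamoxifen, a ligand of the estrogen receptor, in chow at 40 mg/kg from day 21, while WT and *Mtm1* KO mice received standard chow, and muscle was taken at day 36 by the labels and at 35 days by the study's supplement. The paper names sucrose, added for taste, in the tamoxifen chow, and reports lower body weights with this dose in both genotypes. Drug, diet and body weight therefore cannot be told apart in comparisons of treated with untreated mice. The study used 14 of the libraries and left out WT replicate 1 and *Mtm1* KO replicate 12 without a stated reason, and group comparisons here use the same 14. Their counts summed to 25702605 to 29847222 per library.

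*Mtm1* was counted first as a check of the genotype labels. WT replicates 2, 3 and 4 had 369, 341 and 350 counts of *Mtm1*, and *Mtm1* KO replicates 9, 10 and 11 had 76, 63 and 76. The library labelled WT replicate 1 had 74 counts, a level within the range of the *Mtm1* KO libraries, which goes against its label. Its summed RPKM over 10 fibroblast genes was 944. That sum was 736 to 953 in WT replicates 2 to 4 and 1276 to 1690 in *Mtm1* KO replicates 9 to 11. Over 10 macrophage genes its sum was 89.2, against 105 to 129 and 182 to 262. These sums lay nearer the other WT libraries, but its slow fiber sum, 1490, was above every other library. Whether the label is wrong was not tested. WT + TAM replicates 7 and 8 were closer to each other than any other of the 120 pairs of libraries. The median chi-square of a gene between them was 1.47, where sampling noise alone gives 0.455 and the next closest pair gave 3.59. Whether they come from 2 mice or are 2 preparations from 1 mouse cannot be told from these values. They were kept as separate replicates under their labels, so that n = 4 in WT + TAM rests on the labels, and the counts of called genes in the pairwise comparisons that use them are given with either one left out. The WT + TAM group has 4 libraries, these 2 included.

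All 10 genes are protein coding and lie apart on the mouse genome (GRCm38, annotation GENCODE vM21). *Adipoq* (ENSMUSG00000022878) is at chr16:23146536-23158028, *Retn* (ENSMUSG00000012705) at chr8:3655770-3660110 and *Cfd* (ENSMUSG00000061780) at chr10:79890853-79892655, all on the plus strand. *Lep* (ENSMUSG00000059201, plus strand) at chr6:29060220-29073877, *Pparg* (ENSMUSG00000000440, plus strand) at chr6:115360951-115490399 and *Cidec* (ENSMUSG00000030278, minus strand) at chr6:113424634-113435760 share chromosome 6. *Fabp4* (ENSMUSG00000062515, minus strand) at chr3:10204088-10208576 and *Car3* (ENSMUSG00000027559, plus strand) at chr3:14863512-14872523 share chromosome 3. *Plin1* (ENSMUSG00000030546) is at chr7:79720218-79732903 and *Scd1* (ENSMUSG00000037071) at chr19:44394455-44407879, both on the minus strand. No annotated gene overlaps the other 9, while *Gm44079* lies within *Pparg* on the other strand. Whether counting used the strand is not given in the sources used here, so that reads of this pair cannot be told apart.

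The hormones that fat cells secrete are described first. *Adipoq* encodes adiponectin, a hormone made almost exclusively by fat cells, and its level is given in RPKM, counts scaled to gene length and library total. It stood at 77.5, 4.28 and 8.54 in WT replicates 2, 3 and 4, 83.8, 72.5, 23.1 and 22.5 in WT + TAM replicates 5 to 8, 85.8, 36.7 and 39.1 in *Mtm1* KO replicates 9, 10 and 11, and 31.9, 33.0, 34.5 and 52.9 in *Mtm1* KO + TAM replicates 13 to 16. WT replicate 2 lay with the highest treated libraries, while WT replicates 3 and 4 were below every other library of the 14, and the range of WT alone covered that of *Mtm1* KO + TAM. The highest library had 20.1 times the *Adipoq* RPKM of the lowest. *Lep*, the gene of the satiety hormone leptin, reached 3.61, 0.162 and 0.260 in WT, 0.724, 4.45, 0.580 and 0.286 in WT + TAM, 1.98, 1.35 and 1.503 in *Mtm1* KO, and 0.575, 1.00, 0.959 and 3.35 in *Mtm1* KO + TAM. Its highest libraries were WT replicate 2, WT + TAM replicate 6 and *Mtm1* KO + TAM replicate 16, each at least 3.35 RPKM, and the other 11 were at or below 1.98.

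*Retn* encodes resistin, a small cysteine-rich hormone of mouse fat cells. Its RPKM was 21.4, 2.18 and 4.41 in WT, 57.9, 30.3, 17.9 and 16.4 in WT + TAM, 37.7, 17.8 and 20.5 in *Mtm1* KO, and 27.6, 22.3, 26.2 and 23.9 in *Mtm1* KO + TAM. *Mtm1* KO + TAM replicates were within 1.24 times of each other, and WT replicates spread over 9.80 times. The most abundant of the secreted products was *Cfd*, which encodes adipsin, a protease of the alternative complement pathway. The RPKM of *Cfd* was 732, 55.4 and 81.3 in WT, 1123, 567, 264 and 255 in WT + TAM, 722, 463 and 505 in *Mtm1* KO, and 590.3, 456, 507 and 491 in *Mtm1* KO + TAM. It averaged 289 ± 383 in WT, 552 ± 407 in WT + TAM, 564 ± 139 in *Mtm1* KO and 511 ± 56.7 in *Mtm1* KO + TAM (mean ± SD of 3, 4, 3 and 4 libraries). The SD exceeded the mean in WT, the group that holds both a high library and the 2 lowest.

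*Plin1* and *Cidec* encode proteins of the lipid droplet surface. Perilipin 1 guards the droplet against lipases, and CIDEC lets droplets fuse into the single large one of white fat cells. *Plin1* RPKM was 38.9, 1.99 and 4.85 in WT, 40.3, 36.5, 7.88 and 9.004 in WT + TAM, 43.3, 15.2 and 12.3 in *Mtm1* KO, and 11.05, 12.3, 16.8 and 26.01 in *Mtm1* KO + TAM. *Cidec* RPKM was 48.0, 3.22 and 5.55 in WT, 101, 72.6, 15.97 and 15.7 in WT + TAM, 59.1, 31.0 and 30.0 in *Mtm1* KO, and 34.4, 28.7, 34.1 and 38.6 in *Mtm1* KO + TAM. As for *Adipoq*, WT replicates 3 and 4 were lowest for both genes, and the ratio of *Plin1* to *Adipoq* stayed between 0.316 and 0.568 over the 14 libraries although each gene varied by about the same factor, 21.8 times for *Plin1*. The ratio of *Cidec* to *Adipoq* stayed between 0.619 and 1.20.

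*Fabp4*, *Scd1* and *Car3* handle fatty acids and bicarbonate in fat cells but are not confined to them. *Fabp4* encodes a carrier of fatty acids that endothelial cells and macrophages also make, and its RPKM was 1311, 263 and 555 in WT, 1944, 1440.3, 576 and 592 in WT + TAM, 1808, 1149 and 834 in *Mtm1* KO, and 1015, 859, 1089 and 1409 in *Mtm1* KO + TAM. It varied by 7.39 times, less than *Adipoq*. *Scd1* encodes the desaturase that makes monounsaturated fatty acids, and it spanned the widest range of the 10 genes, 66.5 times, with RPKM values of 241, 10.9 and 52.6 in WT, 725, 649.6, 163 and 165 in WT + TAM, 488, 169 and 71.8 in *Mtm1* KO, and 167, 203, 287 and 465 in *Mtm1* KO + TAM. *Car3* encodes carbonic anhydrase 3, which is abundant in slow muscle fibers as well as in fat cells. *Car3* RPKM was 1127, 286 and 679 in WT, 1812, 2109.9, 1560.3 and 1500.2 in WT + TAM, 803, 458 and 897 in *Mtm1* KO, and 1097, 1642, 689 and 996 in *Mtm1* KO + TAM. For *Car3* the order of libraries differed from that of *Adipoq*, since WT + TAM replicates 7 and 8 were also above every WT library. *Pparg*, the nuclear receptor that drives fat cell differentiation, had RPKM values of 8.64, 1.43 and 1.70 in WT, 9.29, 8.29, 2.79 and 2.19 in WT + TAM, 8.30, 3.90 and 4.31 in *Mtm1* KO, and 4.14, 3.70, 5.37 and 10.1 in *Mtm1* KO + TAM.

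For 9 of the 10 genes the 2 lowest of the 14 libraries were WT replicates 3 and 4, with *Car3* as the exception, and for all 10 genes the highest WT library was replicate 2. WT replicate 2 had 18.1 times the *Adipoq* RPKM of WT replicate 3 and 9.07 times that of WT replicate 4. The 2 libraries left out by the study were low as well, with *Adipoq* at 6.69 RPKM in the library labelled WT replicate 1 and 7.02 in *Mtm1* KO replicate 12. With that library included, *Mtm1* KO spanned 12.2 times for *Adipoq* in place of 2.34 times. In bulk tissue, fewer fat cells and less RNA of these genes per cell cannot be told apart.

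**Figure D1:**
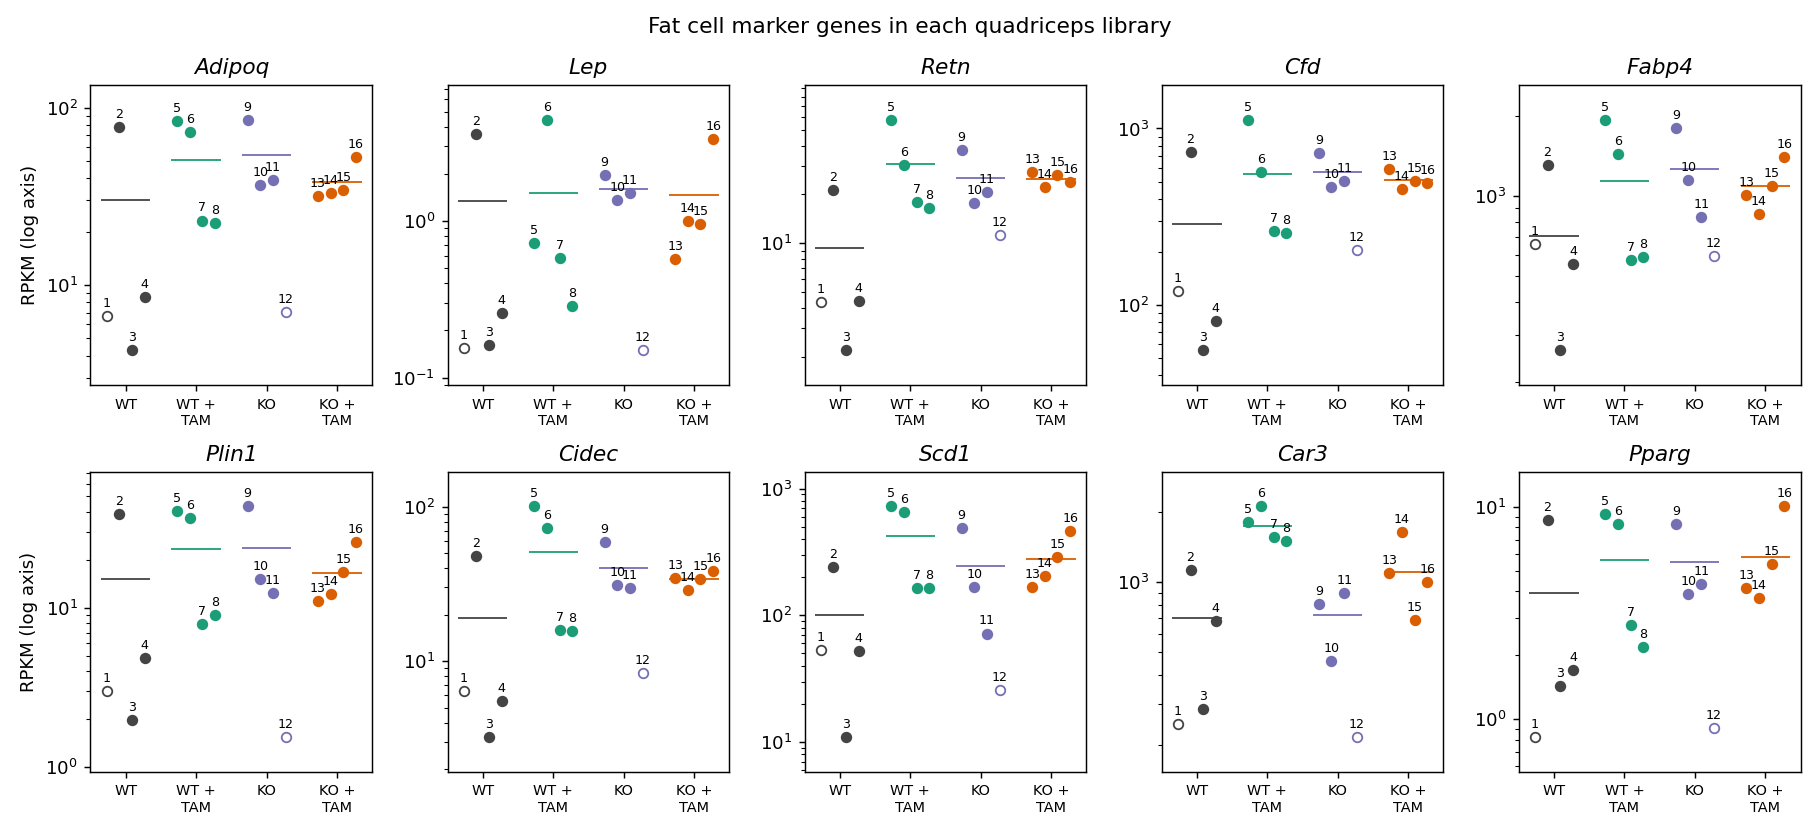
RPKM of the 10 fat cell marker genes in each quadriceps library on a log axis, by group. Each point is 1 library with its replicate number, the line is the group mean over the 14 libraries, and open points are the 2 libraries that the study left out. WT replicate 2 lies far above WT replicates 3 and 4 for *Adipoq* (77.5 against 4.28 and 8.54), and *Mtm1* KO + TAM is the tightest group for *Cfd* and *Retn*.

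A fat score was set as the mean log2 CPM (counts scaled to library total, TMM normalization, prior count 2) over 5 genes, *Adipoq*, *Plin1*, *Cidec*, *Cfd* and *Retn*. *Fabp4*, *Pparg*, *Scd1* and *Car3* were left out because endothelium, macrophages or muscle fibers also use them. *Lep* was left out because it was taken to be low. The score was 6.86, 3.18 and 3.96 in WT, 7.61, 7.03, 5.45 and 5.45 in WT + TAM, 6.87, 5.78 and 5.87 in *Mtm1* KO, and 6.06, 5.77, 5.94 and 6.33 in *Mtm1* KO + TAM. The range over the 14 libraries was 4.43 log2 units, while the ranges within groups were 3.68 in WT, 2.16 in WT + TAM, 1.09 in *Mtm1* KO and 0.56 in *Mtm1* KO + TAM. The score averaged 4.67 ± 1.94 in WT, 6.39 ± 1.11 in WT + TAM, 6.17 ± 0.61 in *Mtm1* KO and 6.02 ± 0.23 in *Mtm1* KO + TAM (mean ± SD of 3, 4, 3 and 4 libraries). WT was the lowest in mean and the widest in spread, and the means of the other 3 groups were within 1 SD of WT + TAM from each other. The 5 genes took 0.00702% of all counts in WT replicate 3 and 0.151% in WT + TAM replicate 5.

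The 10 genes varied among replicates more than most genes. The biological coefficient of variation in the 4-group model was 0.821 for *Lep*, 0.695 for *Scd1*, 0.682 for *Plin1* and 0.624 for *Adipoq*, and it was lowest for *Fabp4* at 0.421 and *Car3* at 0.327. The median over 15556 genes was 0.190. For *Adipoq*, 96.7% of genes had a lower coefficient. All 10 passed the filter on low counts in every comparison.

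*Mtm1* KO was compared with WT to ask what loss of *Mtm1* changes in muscle. No fat cell marker was called, 0 of 10, where 3.6% of all genes tested were called (531 of 14740, edgeR quasi-likelihood test, adjusted p of at most 0.01). None of the 10 had an unadjusted p under 0.05, a level that 4431 genes reached. DESeq2 called more of all genes than edgeR, a count given with the other settings at the end. It called 0 of the 7 markers it gave an adjusted p, with no value for *Adipoq*, *Cidec* and *Lep*. Here and below, the value after ± on a log2 fold change is its standard error in the edgeR fit. The log2 fold change was 1.17 ± 0.66 (adjusted p = 0.272) for *Retn*, 0.81 ± 0.80 (adjusted p = 0.538) for *Cidec*, 0.58 ± 0.85 (adjusted p = 0.693) for *Adipoq* and -0.0040 ± 0.88 (adjusted p = 0.998) for *Lep*. The median over the 10 genes was 0.56, with 8 positive, against 0.023 over all genes. Leaving out single libraries, it ran from 0.020 without *Mtm1* KO replicate 9 to 2.60 without WT replicate 2. The median standard error of the 10 was 0.79, against 0.20 over all genes.

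The calls of the markers depended on WT replicate 2. Without it, 5 of 10 markers were called, all higher in *Mtm1* KO, where 0.946% of genes were called higher (143 of 15123). In edgeR's quasi-likelihood test without this library, *Cfd* rose by 2.70 ± 0.26 on the log2 scale (adjusted p = 0.00166) and *Cidec* by 2.85 ± 0.36 (adjusted p = 0.00391). *Lep* rose by 2.58 (adjusted p = 0.00619), *Retn* by 2.61 (adjusted p = 0.00767) and *Adipoq* by 2.73 (adjusted p = 0.00931). The median over the 10 genes was then 2.60. That fit sets 2 WT libraries against 3. With 1 library left out at a time, namely WT replicates 2, 3 and 4 and *Mtm1* KO replicates 10 and 11 in this order, the count over all genes was 263, 244, 194, 211 and 182, against 531 with all 6. With all 16 libraries less WT replicate 2, a setting chosen after seeing the data, the median was 2.04 and 0 of 10 were called. The lowest edgeR adjusted p was 0.0317 for *Retn*, and over all genes 57 of 14927 were called. In that setting the library labelled WT replicate 1, whose *Mtm1* count goes against its label, stood among the WT libraries.

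*Mtm1* KO + TAM was compared with *Mtm1* KO to ask what tamoxifen changes in the mutant muscle. No fat cell marker was called, 0 of 10. Over all genes 0% were called (0 of 15062, edgeR quasi-likelihood test), 1137 genes had an unadjusted p under 0.05, and DESeq2 called 68 genes, none of them a marker. *Car3*, the gene with the largest value, differed by 0.67 ± 0.31 (adjusted p = 0.667), and *Plin1*, the gene with the lowest, by -0.46 ± 0.41 (adjusted p = 0.870). The score means of the 2 groups were 6.17 and 6.02, and the median standard error of the 10 genes was 0.30, smaller than in the comparisons with WT. The median of the 10, -0.081, ran from -0.27 without *Mtm1* KO + TAM replicate 16 to 0.25 without *Mtm1* KO replicate 9. With all 16 libraries, *Mtm1* KO replicate 12 included, the median was 0.19 with 8 of 10 positive. The score means were then 5.62 ± 1.18 in *Mtm1* KO and 6.02 ± 0.24 in *Mtm1* KO + TAM (mean ± SD). The signs of *Adipoq* and *Plin1* depended on *Mtm1* KO replicate 9, the highest of its group. Without it the log2 fold change of *Adipoq* moved from -0.45 to 0.048 and that of *Plin1* from -0.46 to 0.30, with 0 of 10 called. Over all genes 1 was called without *Mtm1* KO replicate 9 and 1 without *Mtm1* KO + TAM replicate 16.

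WT + TAM was compared with WT to give what differs with tamoxifen chow in healthy muscle. All 10 log2 fold changes were positive with all 7 libraries, and 9 of 10 without WT replicate 3, WT replicate 4 or WT + TAM replicate 6. Called were 0 of 10, where 0.131% of all genes were called (19 of 14544, edgeR quasi-likelihood test) and DESeq2 called 208 genes, none of them a marker, with no value for *Lep*. Of the 10, 3 had an unadjusted p under 0.05, against 1549 of all genes. These were *Scd1*, with a log2 fold change of 2.12 ± 0.92 (adjusted p = 0.456), *Retn*, with 1.76 ± 0.71 (adjusted p = 0.424), and *Car3*, with 1.35 ± 0.35 (adjusted p = 0.181). *Car3* ranged from 286 to 1127 RPKM in WT and from 1500.2 to 2109.9 in WT + TAM. *Adipoq* differed by 0.79 ± 0.87 (adjusted p = 0.798). The median of the 10 was 0.89 and ran from 0.41 without WT + TAM replicate 5 to 2.88 without WT replicate 2, again with 0 called, the lowest adjusted p without WT replicate 2 being 0.0727 for *Car3*. With 1 library left out at a time, namely WT replicates 2, 3 and 4 and WT + TAM replicates 5, 7 and 8 in this order, the count over all genes was 9, 12, 2, 4, 6 and 4, each with 0 of the 10.

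*Mtm1* KO + TAM was compared with WT + TAM, the contrast of genotypes under treatment. All 10 log2 fold changes were negative, with a median of -0.63 against -0.014 over all genes. Without WT + TAM replicate 5, 3 of the 10 were positive, and without WT + TAM replicate 6, 1, and the median ran from -0.90 without *Mtm1* KO + TAM replicate 16 to -0.30 without WT + TAM replicate 5. Called were 0 of 10, where 6.72% of all genes were called (979 of 14563, edgeR quasi-likelihood test). *Car3* came closest, at -0.93 ± 0.24 (adjusted p = 0.0225), with an unadjusted p of 0.00240, the only 1 of the 10 under 0.05, a level that 4700 genes reached. DESeq2, which gave no value for *Lep* and called more of all genes than edgeR, called *Car3* (adjusted p = 7.98e-04). So did edgeR with no filter on low counts (adjusted p = 0.00719) and without *Mtm1* KO + TAM replicate 14 (adjusted p = 0.00948). The RPKM of *Mtm1* KO + TAM replicate 14, 1642, lay within the WT + TAM range. For *Cidec* the log2 fold change was -0.87 ± 0.51 (adjusted p = 0.266), and for *Scd1* it was -0.88 ± 0.50 (adjusted p = 0.245). The WT + TAM libraries spread over 3.73 times for *Adipoq*, with replicates 5 and 6 high and replicates 7 and 8 low. With 1 library left out at a time, namely WT + TAM replicates 7 and 8 and *Mtm1* KO + TAM replicates 13, 14 and 15 in this order, the count over all genes was 554, 538, 622, 537 and 424.

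*Mtm1* KO + TAM was also compared with untreated WT, whose libraries are those of the comparisons above. Called were 0 of 10, where 7.7% of all genes were called (1150 of 14942, edgeR quasi-likelihood test), and 5075 genes but none of the 10 had an unadjusted p under 0.05. DESeq2 called more of all genes than edgeR, a count given with the other settings at the end. It called 0 of the 6 markers it gave an adjusted p, with no value for *Adipoq*, *Cidec*, *Lep* and *Cfd*. *Retn* had the lowest adjusted p, with a log2 fold change of 1.19 ± 0.55 (adjusted p = 0.154), and its lowest *Mtm1* KO + TAM value, 22.3 RPKM, was just above its highest WT value, 21.4. The median of the 10 was 0.40 and ran from 0.040 without WT replicate 3 to 2.39 without WT replicate 2. WT replicate 2 decided the calls of the markers here too. Without it 4 of 10 were called, all higher, where 2.26% of genes were called higher (346 of 15330). In edgeR's quasi-likelihood test *Cidec* then rose by 2.66 on the log2 scale (adjusted p = 2.67e-04), *Retn* by 2.63 (adjusted p = 4.02e-04), *Cfd* by 2.61 (adjusted p = 2.37e-04) and *Adipoq* by 2.28 (adjusted p = 0.00165). The same 4 genes were called with all 16 libraries less WT replicate 2, the setting chosen after seeing the data. There 82 of 14950 genes were called higher. With 1 library left out at a time, namely WT replicates 2, 3 and 4 and *Mtm1* KO + TAM replicates 13, 14 and 15 in this order, the count over all genes was 731, 615, 531, 701, 726 and 585.

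In 1 model of the 4 groups, where DESeq2 gave no adjusted p for *Lep*, the difference between the tamoxifen effects in *Mtm1* KO and in WT called 0% of genes (0 of 15556, edgeR quasi-likelihood test, 664 with an unadjusted p under 0.05, 12 called by DESeq2) and 0 of the 10 markers, of which 1, *Retn*, had an unadjusted p under 0.05, at -1.72 ± 0.80 (adjusted p = 1.000). All 10 values were negative, with a median of -1.09 and a median standard error of 0.97. Across fits with 1 library left out, the median ran from -3.12 without WT replicate 2 to -0.60 without WT replicate 3, and 1 of the 10 was positive without WT replicate 3, WT replicate 4, WT + TAM replicate 6 or *Mtm1* KO + TAM replicate 13. Without WT replicate 2, *Retn* was at -3.16. The mean tamoxifen effect over both genotypes called 0.591% of genes (92 of 15556) and 0 of 10, with 2 of the 10 and 2200 of all genes at an unadjusted p under 0.05. DESeq2, which called more of all genes than edgeR there, called 0 of 9. *Car3* was the nearest at 1.02 ± 0.26 (adjusted p = 0.0614), and the median of the 10, 0.41, ran from 0.18 without WT + TAM replicate 5 to 1.32 without WT replicate 2. With 1 library left out at a time, namely WT replicates 2 and 4 and *Mtm1* KO replicates 9 and 10 and *Mtm1* KO + TAM replicate 15 in this order, the count over all genes was 54, 53, 59, 51 and 58. Without WT + TAM replicate 7 or 8 it was 65 and 62, and the interaction stayed at 0. The mean genotype effect called 19.4% of genes (3013 of 15556) and 0 of 10 by edgeR, 0 of 9 by DESeq2, with 1 of the 10 and 6792 of all genes at an unadjusted p under 0.05. The median of the 10 was -0.033 there and ran from -0.25 without WT replicate 3 to 0.92 without WT replicate 2. The count of genes in the mean genotype effect stayed within 1.5 times with any 1 library left out.

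Genes whose level moved with the fat score among mice of the same group were ranked by Pearson r over the 14 libraries after subtracting group means, as a description with no test. All genes are set against the same score, so that their r values are not independent, and WT replicate 2 is far from the mean of its group. Among 11863 genes that averaged 50 or more counts, 72 had r of at least 0.9. The 5 genes of the score, which is computed from them, had r between 0.976 and 0.992. Of the markers outside the score, *Fabp4* had r = 0.950, *Pparg* 0.937, *Scd1* 0.912, *Lep* 0.787 and *Car3* 0.623. *Car3* therefore followed the fat score least of the 10.

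The 15 genes outside the markers with the highest r were *Cebpa*, *Arxes2*, *Ces1f*, *Ces1d*, *Cd1d1*, *Smoc1*, *Car5b*, *Slc1a5*, *Lipe*, *Pck1*, *Pygb*, *Slc22a3*, *Apoc1*, *Nnat* and *Slc36a2*, with r from 0.959 to 0.990. *Cebpa*, a transcription factor of mature fat cells, led the list and ran from 2.93 to 31.2 RPKM. *Lipe* encodes hormone-sensitive lipase, which releases fatty acids from the droplet, and ran from 3.65 to 42.8 RPKM. *Pck1* encodes an enzyme on the path by which fat cells make the glycerol part of triglyceride, and it had the widest range of the 15, 1.502 to 98.9 RPKM. *Pygb*, the brain form of glycogen phosphorylase, ran only from 2.04 to 6.53 RPKM and still had r = 0.961. *Ces1d* and *Ces1f* encode carboxylesterases that hydrolyse lipids, and *Car5b* a mitochondrial carbonic anhydrase.

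The 50 genes with the highest r outside the markers were chosen for following the markers over these libraries. Their group differences are therefore no independent evidence on the markers. Their median log2 fold change was 0.66 in *Mtm1* KO against WT, -0.25 in *Mtm1* KO + TAM against *Mtm1* KO, 0.81 in WT + TAM against WT, -0.54 in *Mtm1* KO + TAM against WT + TAM and 0.35 in *Mtm1* KO + TAM against WT. In the same order, 47, 4, 46, 2 and 38 of the 50 were positive. These medians rest on single libraries. With 1 left out, a setting added after seeing the data, they ran in that order from 0.21 without WT replicate 3 to 1.99 without WT replicate 2, from -0.45 without *Mtm1* KO replicate 11 to 0.042 without *Mtm1* KO replicate 9, from 0.45 without WT + TAM replicate 5 to 2.15 without WT replicate 2, from -0.78 without WT + TAM replicate 8 to -0.13 without WT + TAM replicate 5 and from 0.049 without WT replicate 3 to 1.64 without WT replicate 2. The numbers of positive genes ran from 38 to 48, 0 to 27, 42 to 50, 1 to 16 and 26 to 48. With all 14 libraries only *Enpp2*, which encodes the secreted enzyme autotaxin, was called of the 50, lower in *Mtm1* KO + TAM than in WT + TAM (6.72% of all genes called) at -0.83 on the log2 scale (edgeR adjusted p = 0.00591) and lower in the mean genotype effect (19.4%). The former call was lost without any 1 of WT + TAM replicates 5 and 6, or *Mtm1* KO + TAM replicates 13, 14, 15 and 16 (adjusted p = 0.0117 to 0.0268). Without WT replicate 2, 7 of the 50 were called higher in *Mtm1* KO than in WT and 21 higher in *Mtm1* KO + TAM than in WT, with 0 called lower in either, where 0.946% and 2.26% of all genes were called higher. With all 16 libraries less WT replicate 2 the counts were 0 and 8, where 34 of 14927 and 82 of 14950 genes were called higher. The list itself rests on that library in part, since 26 of the 50 genes were among the first 50 when the ranking left it out.

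**Figure D2:**
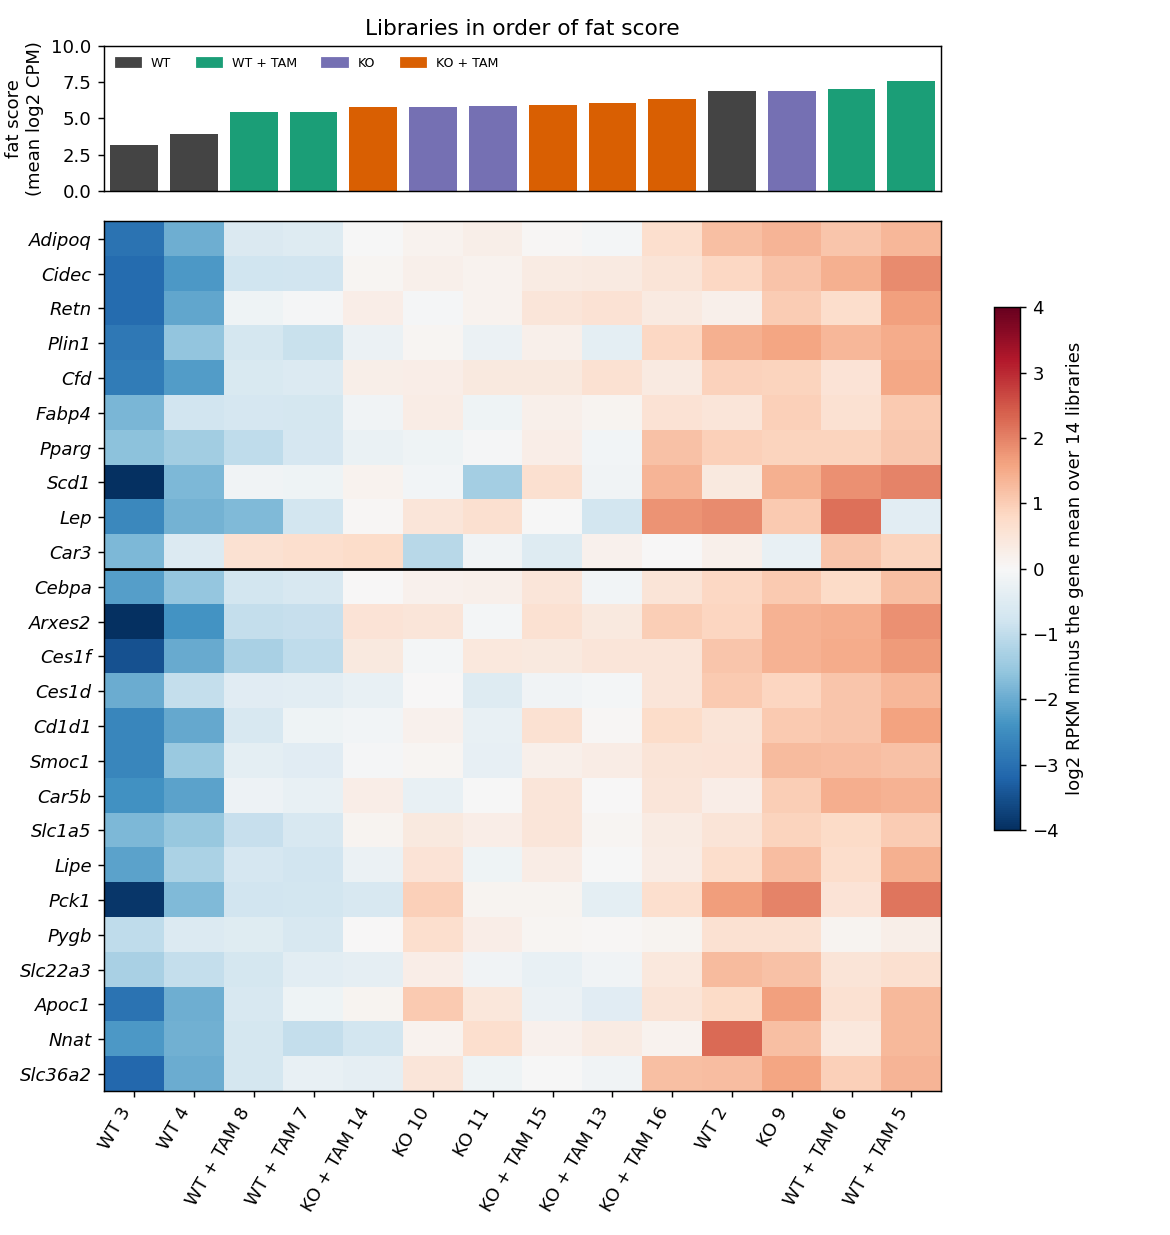
Fat score (upper panel, mean log2 CPM of 5 genes, bars coloured by group) and log2 RPKM minus the gene mean over 14 libraries (lower panel, colour scale from -4 to 4). The lower panel holds the 10 markers, above the black line, and the 15 other genes with the highest within-group r, below it. Libraries run from the lowest score, WT replicate 3 at 3.18, to the highest, WT + TAM replicate 5 at 7.61, and nearly all genes shift from blue to red in that order, while *Car3* and *Lep* follow it less closely.

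Other genes of lipid storage and fatty acid synthesis were counted per list. Of 17 genes of the lipid droplet and of triglyceride turnover, 0 were called in *Mtm1* KO against WT, where 3.6% of all genes were called. In *Mtm1* KO + TAM against WT + TAM, 1 was called, where 6.72% of all genes were called. This was *Gpd1*, which encodes the glycerol phosphate dehydrogenase that muscle also uses. In edgeR's test *Gpd1* was lower in *Mtm1* KO + TAM than in WT + TAM, at -1.23 ± 0.23 (adjusted p = 0.00429). It was also lower in *Mtm1* KO + TAM than in WT, at -1.05 ± 0.21 (edgeR adjusted p = 0.00715), where 7.7% of all genes were called. With 1 library left out, the first call was lost without any 1 of WT + TAM replicate 6, or *Mtm1* KO + TAM replicates 13, 14 and 15 (adjusted p = 0.01005 to 0.0163) and the second without any 1 of WT replicates 2, 3 and 4, or *Mtm1* KO + TAM replicates 13, 14 and 15 (adjusted p = 0.0151 to 0.0226). The mean genotype effect (19.4% of all genes) called it lower as well. It was the most abundant of the list, from 142 to 487 RPKM.

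Of 14 genes of fatty acid synthesis, 1 was called in a pairwise comparison, *Mtm1* KO + TAM against WT + TAM (6.72% of all genes). *Srebf1*, a transcription factor that turns on lipid synthesis, fell by 1.05 on the log2 scale there (edgeR adjusted p = 4.12e-04). *Thrsp*, the most abundant of the list, ran from 26.2 to 296 RPKM, lowest in WT replicate 3 and highest in WT + TAM replicate 5. In WT + TAM against WT, 13 of the 14 values were positive with a median of 0.90, and 0 were called, where 0.131% of all genes were called. The median ran from 0.64 without WT + TAM replicate 5 to 2.16 without WT replicate 2. In *Mtm1* KO + TAM against WT + TAM, 0 of the 14 were positive, with a median of -0.67. That median ran from -1.04 without *Mtm1* KO + TAM replicate 16 to -0.35 without WT + TAM replicate 5. The mean genotype effect (19.4% of all genes) called *Srebf1* and *Mlxipl* lower, the latter not without any 1 of *Mtm1* KO replicates 10 and 11 (adjusted p = 0.0129 to 0.0130).

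Of 12 regulators of fat cell formation tested, 2 were called in *Mtm1* KO against WT, where 3.6% of all genes were called, and 3 in the mean genotype effect, where 19.4% were. *Klf5*, a transcription factor that muscle and blood vessels also make, rose in *Mtm1* KO by 1.87 ± 0.30 (adjusted p = 0.00567) against WT in edgeR's test, and *Rxra*, the partner of PPARG in its heterodimer, was lower at -0.74 ± 0.13 (adjusted p = 0.00774). The same 2 were called in *Mtm1* KO + TAM against WT + TAM (6.72% of all genes) and against WT (7.7%), and there with any 1 library left out. In *Mtm1* KO against WT, *Klf5* was not called without any 1 of WT replicates 2, 3 and 4, or *Mtm1* KO replicates 10 and 11 (adjusted p = 0.0127 to 0.0216), and *Rxra* in none of the 6 fits with 1 library left out (adjusted p = 0.0162 to 0.0271). The mean genotype effect called both and *Ebf1*, a factor of early fat cells, which was not called without any 1 of WT replicates 3 and 4, or WT + TAM replicates 5, 6, 7 and 8, or *Mtm1* KO replicate 10, or *Mtm1* KO + TAM replicates 13, 15 and 16 (adjusted p = 0.0109 to 0.0278). *Klf5* ran from 1.497 RPKM in WT replicate 2, the WT library with the highest fat score, to 11.8 in *Mtm1* KO replicate 10. *Cebpb* was the most abundant regulator, at 41.4 to 105 RPKM, and *Gata3* was near 0, at 0 counts in WT + TAM replicate 7 and with at most 28 counts in a library.

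Some markers of brown and beige fat differed between libraries with nearly the same *Adipoq*. *Ucp1*, the uncoupling protein by which brown fat makes heat, named after its values were seen, was 13.7, 0 and 5.08 RPKM in WT, 28.4, 21.4, 2.51 and 1.99 in WT + TAM, 76.1, 56.9 and 1.04 in *Mtm1* KO, and 2.07, 0.641, 3.97 and 40.6 in *Mtm1* KO + TAM. WT replicate 3 had 0 counts of *Ucp1*. *Mtm1* KO replicates 10 and 11 had nearly the same *Adipoq*, 36.7 and 39.1 RPKM, while *Ucp1* was 55.0 times higher in replicate 10. *Cidea*, a droplet protein of brown fat, was the most abundant of the 9 genes and was 11.4 times higher in replicate 10 than in replicate 11. *Ucp1* differed by 2.55 ± 1.37 (adjusted p = 0.248) in *Mtm1* KO against WT and was called in no comparison. *Dio2*, the enzyme that activates thyroid hormone, was the only 1 of the 8 tested that was called, in *Mtm1* KO + TAM against WT + TAM (6.72% of all genes) at 2.19 ± 0.28 (adjusted p = 7.17e-04) in edgeR's test and in the mean genotype effect (19.4%). It was the only positive value of the 8 in the former, where their median was -0.47, but 1 to 4 were positive with 1 library left out, and the median ran from -1.54 without *Mtm1* KO + TAM replicate 16 to -0.084 without WT + TAM replicate 5. Not all 9 followed *Ucp1*. *Zic1*, with at most 33 counts in a library, was highest in *Mtm1* KO replicate 11, and *Prdm16*, named after its values were seen, varied 2.04 times over the 14 libraries. *Lhx8* had at most 12 counts in a library.

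Markers of the other cells of muscle were summed for each library. The summed RPKM of 10 fibroblast genes, of which *Gsn* was the most abundant, came to 878 ± 124 in WT, 853 ± 110.3 in WT + TAM, 1518 ± 215 in *Mtm1* KO and 1278 ± 47.4 in *Mtm1* KO + TAM (mean ± SD of 3, 4, 3 and 4 libraries). The sum was 953, 736 and 947 in WT replicates 2, 3 and 4, which ranks them as their fat scores do, and so do the macrophage sums at 129, 105 and 109. The endothelial sum was highest in WT replicate 4, at 135, 88.7 and 145. In *Mtm1* KO replicates 9, 10 and 11 the order was the reverse of that of the fat scores. Fibroblast sums there were 1276, 1690 and 1587, and macrophage sums 182, 262 and 205. The treated groups followed neither order. *Mfap5*, an elastic fiber protein, was the only 1 of the 10 fibroblast genes called in pairwise comparisons, higher in *Mtm1* KO than in WT by 1.26 ± 0.21 (adjusted p = 0.00754) in edgeR's test (3.6% of all genes called), but not without any 1 of WT replicates 2, 3 and 4, or *Mtm1* KO replicates 10 and 11 (adjusted p = 0.0145 to 0.0326). It was also called higher in *Mtm1* KO + TAM than in WT + TAM (6.72%) and than in WT (7.7%), with any 1 library left out. The 10 endothelial genes summed to 73.3 to 153 RPKM, with *Cdh5* the most abundant and called lower in *Mtm1* KO + TAM than in WT (7.7%), at -1.01 ± 0.19 (adjusted p = 0.00541), but not without any 1 of WT replicates 2 and 4, or *Mtm1* KO + TAM replicates 14 and 15 (adjusted p = 0.0118 to 0.0229). Macrophage genes (10, led by *Lyz2*) summed to 52.0 to 324 RPKM with 0 called in a pairwise comparison (0% to 7.7% of all genes). Their sum averaged 114 ± 12.9 in WT, 108 ± 37.5 in WT + TAM, 217 ± 41.5 in *Mtm1* KO and 216 ± 72.5 in *Mtm1* KO + TAM. Red blood cell genes (6, led by *Hbb-bs*) summed to 74.2 to 370.0 RPKM with 0 of 5 tested called. In the mean genotype effect, with 19.4% of all genes called, *Mfap5*, *Lum* and *Pdgfra* were called higher and *Dpp4* lower among fibroblast genes, *Tek* lower among endothelial genes, and *Cd68* and *C1qb* higher among macrophage genes. Of these, *Pdgfra* was not called without any 1 of WT replicates 3 and 4, or WT + TAM replicate 7, or *Mtm1* KO replicate 11 (adjusted p = 0.0103 to 0.0146), *Dpp4* without any 1 of WT replicates 3 and 4, or WT + TAM replicates 5, 7 and 8, or *Mtm1* KO replicates 9, 10 and 11, or *Mtm1* KO + TAM replicates 13, 14 and 15 (adjusted p = 0.0104 to 0.0272) and *C1qb* without any 1 of WT replicates 2, 3 and 4, or WT + TAM replicates 7 and 8, or *Mtm1* KO replicates 10 and 11, or *Mtm1* KO + TAM replicates 13, 15 and 16 (adjusted p = 0.0105 to 0.0333). No marker of these lists had 3 or fewer counts in all 14 libraries. Their part in the values of *Fabp4*, which endothelium and macrophages also make, was not tested.

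Muscle itself was checked in the same way. The 10 skeletal muscle genes, led by *Acta1* at 17923 to 30407 RPKM, summed to 67148 to 124880 RPKM, the highest of all lists in each library. The sum averaged 110740 ± 12251 in WT, 105100 ± 4739 in WT + TAM, 80495 ± 4699 in *Mtm1* KO and 79605 ± 10408 in *Mtm1* KO + TAM (mean ± SD). In *Mtm1* KO against WT, 3 of the 10 log2 fold changes were positive and the median was -0.74. That median ran from -0.81 without WT replicate 2 to -0.57 without WT replicate 3. *Des* was called higher in *Mtm1* KO than in WT (3.6% of all genes called), at 0.98 ± 0.17 (adjusted p = 0.00832), and in *Mtm1* KO + TAM than in WT + TAM (6.72%), at 0.90 ± 0.16 (adjusted p = 0.00416), where *Pvalb*, *Ckm* and *Myh4* were called lower, at -1.004, -0.87 and -1.24 (edgeR adjusted p = 0.00418, 0.00812 and 8.33e-04). *Des* was not called without any 1 of WT replicates 2, 3 and 4, or *Mtm1* KO replicates 10 and 11 (adjusted p = 0.0224 to 0.0370) in the former comparison. In the latter, *Des* was not called without any 1 of WT + TAM replicates 6, 7 and 8, or *Mtm1* KO + TAM replicates 13, 14 and 15 (adjusted p = 0.0110 to 0.0163), *Pvalb* without any 1 of WT + TAM replicates 5, 7 and 8, or *Mtm1* KO + TAM replicate 14 (adjusted p = 0.0111 to 0.0161) and *Ckm* without any 1 of WT + TAM replicates 5, 6, 7 and 8, or *Mtm1* KO + TAM replicates 14, 15 and 16 (adjusted p = 0.0133 to 0.0278). In *Mtm1* KO + TAM against WT (7.7%), *Des* was called higher and *Pvalb* and *Myh4* lower, at 0.99, -1.31 and -1.37 (edgeR adjusted p = 0.00590, 0.00417 and 0.00365). There *Des* was not called without any 1 of WT replicates 2, 3 and 4, or *Mtm1* KO + TAM replicates 13, 14 and 15 (adjusted p = 0.0146 to 0.0268), *Pvalb* without any 1 of WT replicates 3 and 4, or *Mtm1* KO + TAM replicate 14 (adjusted p = 0.0118 to 0.0156) and *Myh4* without any 1 of WT replicate 2, or *Mtm1* KO + TAM replicates 13, 14 and 15 (adjusted p = 0.0101 to 0.0143). The sum of the 9 slow fiber genes varied 32.4 times, and that of the 5 genes of the fat score 21.0 times. The slow fiber sum was 23.9 RPKM in WT replicate 3 and 774 in *Mtm1* KO replicate 10, with *Tnnc1* the most abundant. WT replicate 3 was thus the lowest library for fat markers and for slow fiber markers, and WT replicate 2, at 194, was below WT replicate 4, at 363. *Tnni1*, *Myoz2* and *Atp2a2* were called higher in *Mtm1* KO + TAM than in WT + TAM (6.72% of all genes called), by 2.81, 1.77 and 1.05 on the log2 scale (edgeR adjusted p = 0.00672, 0.00307 and 0.00214). The call of *Tnni1* was lost without any 1 of WT + TAM replicates 7 and 8, or *Mtm1* KO + TAM replicates 13, 15 and 16 (adjusted p = 0.0148 to 0.0212). In the mean genotype effect (19.4% of all genes), *Des*, *Tnni1*, *Atp2a2*, *Myoz2* and *Tnnt1* were called higher and *Pvalb*, *Ckm*, *Mylpf*, *Acta1*, *Myh4* and *Tnnt3* lower, of which *Myoz2* was not called without any 1 of WT replicate 2, or *Mtm1* KO replicate 10, or *Mtm1* KO + TAM replicate 13 (adjusted p = 0.0103 to 0.0116) and *Tnnt1* without any 1 of WT replicate 2, or WT + TAM replicates 6, 7 and 8, or *Mtm1* KO replicates 9 and 10, or *Mtm1* KO + TAM replicates 13, 15 and 16 (adjusted p = 0.0120 to 0.0271). *Car3* is also a gene of slow fibers, and the part of these fibers in its values was not tested.

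The effect of fat content on the group comparisons was measured by adding the fat score of each library to the model. In *Mtm1* KO against WT the number of called genes went from 531 to 138, of which 135 were called in both, and in *Mtm1* KO + TAM against WT from 1150 to 358, with 339 in both. In *Mtm1* KO + TAM against WT + TAM, 979 genes became 937, with 852 in both, and the mean genotype effect went from 3013 to 2778, with 2636 in both. The comparisons with untreated WT thus lost the largest shares of their calls, and WT is the group whose scores spread most. WT + TAM against WT kept 7 of 19 genes and gained *AW551984*, *Hp*, *Pcx* and *Pla2g16*, named after their values were seen. *Mtm1* KO + TAM against *Mtm1* KO went from 0 to 2, *Aqp5* and *Mmd2*, likewise named after their values were seen, the interaction stayed at 0 in edgeR's test with 512 genes at an unadjusted p under 0.05 and 12 called by DESeq2 without the score, and the mean tamoxifen effect went from 92 to 61.

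With the score in the model no called gene of any comparison changed sign. All 531 genes called in *Mtm1* KO against WT kept their sign, and 15 of them (2.82%) moved by more than 0.5 log2 units, against 4.48% of all genes. Likewise all 1150 genes called in *Mtm1* KO + TAM against WT kept their sign, and 28 (2.43%) moved by that much, against 3.69% of all genes. The median standard error over all genes went from 0.196 to 0.234 in *Mtm1* KO against WT, where residual degrees of freedom fell from 4 to 3, and it was 0.178 and 0.177 in *Mtm1* KO + TAM against WT + TAM. Leaving out any 1 library gave 182 to 363 called genes in *Mtm1* KO against WT and 531 to 1246 in *Mtm1* KO + TAM against WT. It gave 424 to 921 in *Mtm1* KO + TAM against WT + TAM and 2 to 21 in WT + TAM against WT. The lost degree of freedom and the difference in score between WT and the other groups were not told apart as sources of the lost calls. *Mtm1* itself was called at -2.56 without and -2.55 with the score in *Mtm1* KO against WT.

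**Figure D3:**
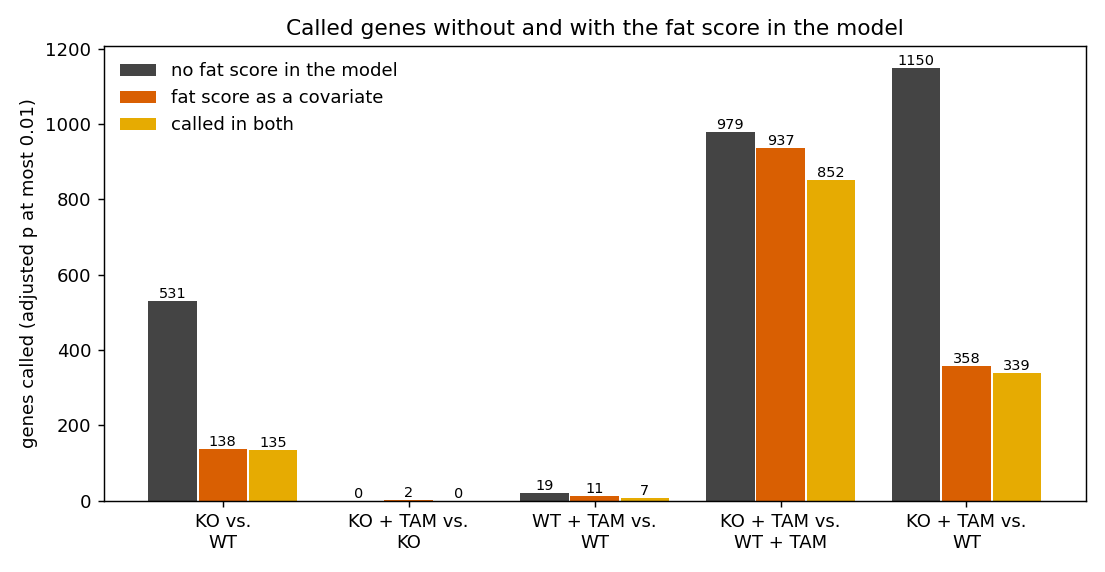
Number of genes called (edgeR, adjusted p at most 0.01, bars from 0) in the 5 pairwise comparisons without the fat score in the model, with it as a covariate, and in both. The comparisons with untreated WT lose most calls, from 531 to 138 for *Mtm1* KO, while *Mtm1* KO + TAM against WT + TAM keeps 852 of 979.

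Because these genes moved together among libraries, the 250 bases before their annotated starts (RefSeq, GRCm38.p6) were searched on both strands for 5 motifs. Promoters of 7 of the 10 genes were in the table, with 10 windows in all, and *Fabp4*, *Scd1* and *Car3* were not searched. TTGCNNAA, the core bound by C/EBP factors, was in windows of *Plin1*, *Cidec*, *Lep* and *Pparg*, and in 9.56% of 32851 promoters. AGGTCA, the half-site of nuclear receptors, was in windows of *Pparg* and in 14% of promoters, and its direct repeat with 1 base between, which PPARG binds with RXR, was in 0 of the 10 windows and 0.0335% of promoters. CCAAT was in windows of *Adipoq* and *Pparg* (33.8% of promoters), and TATAAA in 1 window of *Pparg* (12.4%). A match says only that the letters are present. Windows of 3 genes are shown to let the matches be seen in place, from chr16:23146286-23146535 (*Adipoq*, plus strand), chr6:29059971-29060220 (*Lep*, plus strand) and chr6:113434765-113435014 (*Cidec*, minus strand, the second of its 2 starts in the table). Capitals mark CCAAT or its reverse complement in *Adipoq* and TTGCNNAA in the other 2, where the match in *Lep* reads as the motif on both strands.
Adipoq: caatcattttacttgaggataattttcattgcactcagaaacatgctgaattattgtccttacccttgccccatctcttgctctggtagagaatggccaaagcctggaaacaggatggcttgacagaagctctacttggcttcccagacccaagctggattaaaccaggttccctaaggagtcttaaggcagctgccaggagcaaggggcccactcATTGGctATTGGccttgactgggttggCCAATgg
Lep: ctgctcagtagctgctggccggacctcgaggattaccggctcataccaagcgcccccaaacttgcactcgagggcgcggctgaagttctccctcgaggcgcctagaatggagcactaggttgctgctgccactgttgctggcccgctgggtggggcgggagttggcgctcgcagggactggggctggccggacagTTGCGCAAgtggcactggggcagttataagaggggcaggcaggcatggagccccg
Cidec: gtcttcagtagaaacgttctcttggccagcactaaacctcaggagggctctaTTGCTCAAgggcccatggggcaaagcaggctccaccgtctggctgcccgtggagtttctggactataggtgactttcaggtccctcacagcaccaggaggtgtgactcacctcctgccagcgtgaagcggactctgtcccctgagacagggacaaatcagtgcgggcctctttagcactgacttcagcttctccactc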

How the data were processed

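RNA-seq of mouse quadriceps (16 libraries) was analysed from 2 deposited tables. The raw counts were made by the authors with HTSeq, which counted reads per gene after a 2-step STAR alignment to GRCm38, with no scaling, and the submitters' processing notes name STAR 2.5.0c. The RPKM values were deposited by the authors, scaled to gene length and library total. Neither annotation nor strand setting is stated.

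The members and gene lists were chosen with earlier results of these data known. Counts of the 14 libraries were tested in R 4.3.3 with edgeR 4.0.16 (TMM, filterByExpr with a minimum count of 10, quasi-likelihood test, Benjamini-Hochberg adjustment over all genes, adjusted p of at most 0.01), 2 groups at a time or in 1 fit of 4 groups, and scripts were tested on simulated data. Replicate numbers are not shared between groups. Named genes were the 10 markers, called or most abundant genes of 10 further lists and markers near 0. Also named were the 15 genes outside the markers with the highest within-group r and, as a check, *Mtm1*. *Ucp1*, *Prdm16*, *Enpp2* and genes gained with the score were named after their values were seen. Alternatives were DESeq2 1.42.0, RLE and library size normalization, 2 other filters, a threshold of 0.05, all 16 libraries, each library left out, 1 fit of all groups, the fat score as a covariate, log2 RPKM or all 10 markers in the score and, added after seeing the data, 16 libraries less WT replicate 2 and each library left out for called genes and medians of the lists.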

Additional observations from a re-analysis of the deposited data

Results flagged for a closer look

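In the 4 libraries of a group, the gap from the highest or lowest library to its nearest neighbour was divided by the whole range of the group, for 10 genes and the fat score in 4 groups. By Dixon's 95% critical value for this ratio, 10 of 44 sets held a library apart from the rest. Chance alone sets apart about 1 in 20 where values are normal, which was not checked for RPKM. All 10 were RPKM values, and the fat score, on the log2 scale, held no library apart in any group. All 16 libraries entered, under their labels.

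WT replicate 2 stood above the other WT libraries in 7 genes, with 77.5 RPKM of *Adipoq*, 38.9 of *Plin1*, 48.0 of *Cidec*, 3.61 of *Lep*, 732 of *Cfd*, 21.4 of *Retn* and 8.64 of *Pparg*. *Mtm1* KO + TAM replicate 16 stood above its group in *Adipoq*, at 52.9 RPKM, and in *Lep*, at 3.35. WT + TAM replicate 6 stood above its group in *Lep*, at 4.45 RPKM. These genes vary together, so that the sets are not independent.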

How the results depend on the processing

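Counts of called genes moved by more than 1.5 times under several settings. With DESeq2, they were 1630 in *Mtm1* KO against WT, 68 in *Mtm1* KO + TAM against *Mtm1* KO, 208 in WT + TAM against WT, 1931 in *Mtm1* KO + TAM against WT + TAM, 2252 in *Mtm1* KO + TAM against WT, 12 in the interaction and 327 in the mean tamoxifen effect. With library size normalization, they were 1163 in *Mtm1* KO against WT, 1874 in *Mtm1* KO + TAM against WT + TAM, 1871 in *Mtm1* KO + TAM against WT and 5100 in the mean genotype effect. With no filter, they were 1096 in *Mtm1* KO against WT, 12 in *Mtm1* KO + TAM against *Mtm1* KO, 81 in WT + TAM against WT, 1792 in *Mtm1* KO + TAM against WT and 177 in the mean tamoxifen effect. With all 16 libraries, they were 211 in *Mtm1* KO against WT, 12 in WT + TAM against WT and 297 in *Mtm1* KO + TAM against WT. At an adjusted p of 0.05, they were 1885 in *Mtm1* KO against WT, 80 in WT + TAM against WT, 2476 in *Mtm1* KO + TAM against WT + TAM, 2993 in *Mtm1* KO + TAM against WT, 286 in the mean tamoxifen effect and 5180 in the mean genotype effect. With the fat score, they were 138 in *Mtm1* KO against WT, 2 in *Mtm1* KO + TAM against *Mtm1* KO, 11 in WT + TAM against WT, 358 in *Mtm1* KO + TAM against WT and 61 in the mean tamoxifen effect. In 1 fit of all groups, they were 987 in *Mtm1* KO against WT, 2 in *Mtm1* KO + TAM against *Mtm1* KO and 39 in WT + TAM against WT. With 16 libraries less WT replicate 2, they were 57 in *Mtm1* KO against WT, 6 in WT + TAM against WT and 144 in *Mtm1* KO + TAM against WT. With each library left out in turn, they ran from 182 to 363 for *Mtm1* KO against WT, 0 to 1 for *Mtm1* KO + TAM against *Mtm1* KO, 2 to 21 for WT + TAM against WT, 424 to 921 for *Mtm1* KO + TAM against WT + TAM, 531 to 1246 for *Mtm1* KO + TAM against WT and 51 to 82 for the mean tamoxifen effect. The count of called markers was 1 in *Mtm1* KO + TAM against WT + TAM, namely *Car3*, with DESeq2, with no filter and at an adjusted p of 0.05, and 0 to 1 with each library left out. It was 0 to 5 in *Mtm1* KO against WT and 0 to 4 in *Mtm1* KO + TAM against WT with each library left out, the highest without WT replicate 2, and 4 in the latter with 16 libraries less WT replicate 2. In the other settings it stayed at 0. Of the 50 genes outside the markers closest to the fat score, 33 were kept with all 16 libraries and 26 to 47 with each library left out. The range of the fat score stayed within 1 SD of its value on RPKM and with all 10 markers.

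Log2 fold changes that were not called changed sign as follows. With library size normalization, the value was 0.26 for *Lep* and 0.045 for *Car3* in *Mtm1* KO against WT, -0.021 for *Retn* in *Mtm1* KO + TAM against *Mtm1* KO, 0.045 for *Pparg* in *Mtm1* KO + TAM against WT + TAM, 0.12 for *Plin1* and 0.13 for *Lep* in *Mtm1* KO + TAM against WT and 0.22 for *Adipoq*, 0.063 for *Plin1*, 0.24 for *Cidec*, 0.11 for *Lep* and 0.27 for *Pparg* in the mean genotype effect. With no filter, the value was 0.0069 for *Lep* in *Mtm1* KO against WT. With all 16 libraries, the value was 0.034 for *Fabp4*, 0.13 for *Cidec*, 0.29 for *Lep* and 0.15 for *Cfd* in *Mtm1* KO + TAM against *Mtm1* KO, 0.19 for *Plin1* and 0.25 for *Lep* in *Mtm1* KO + TAM against WT and -0.024 for *Fabp4* and -0.074 for *Scd1* in the mean genotype effect. With 16 libraries less WT replicate 2, the value was 2.28 for *Lep* and 0.19 for *Car3* in *Mtm1* KO against WT and 1.97 for *Plin1* and 2.57 for *Lep* in *Mtm1* KO + TAM against WT. With each library left out, *Mtm1* KO against WT gave -0.52 to 2.58 for *Lep*, -0.58 to 0.26 for *Car3*, -0.41 to 2.45 for *Plin1*, -0.20 to 1.47 for *Pparg* and -0.033 to 2.61 for *Scd1*. The ranges for *Mtm1* KO + TAM against *Mtm1* KO were -0.67 to 0.048 for *Adipoq*, -0.36 to 0.19 for *Fabp4*, -0.79 to 0.30 for *Plin1*, -0.34 to 0.20 for *Cidec*, -0.90 to 0.19 for *Lep*, -0.22 to 0.12 for *Cfd*, -0.18 to 0.42 for *Retn*, -0.29 to 0.54 for *Pparg* and -0.16 to 1.27 for *Scd1*. The ranges for WT + TAM against WT were -1.29 to 2.80 for *Lep*. The ranges for *Mtm1* KO + TAM against WT + TAM were -0.56 to 0.070 for *Fabp4*, -0.63 to 0.24 for *Cfd*, -0.65 to 0.14 for *Pparg* and -1.12 to 1.19 for *Lep*. The ranges for *Mtm1* KO + TAM against WT were -0.62 to 1.98 for *Plin1*, -0.92 to 2.501 for *Lep*, -0.39 to 2.28 for *Adipoq* and -0.10 to 1.59 for *Pparg*. The ranges for the interaction were -2.86 to 1.22 for *Lep*. The ranges for the mean tamoxifen effect were -0.069 to 1.27 for *Adipoq*, -0.14 to 1.16 for *Plin1* and -0.67 to 1.37 for *Lep*. The ranges for the mean genotype effect were -0.32 to 1.01 for *Adipoq*, -0.60 to 0.82 for *Plin1*, -0.29 to 0.98 for *Cidec*, -0.58 to 1.13 for *Lep*, -0.24 to 0.61 for *Pparg*, -0.093 to 0.47 for *Fabp4*, -0.10 to 1.15 for *Cfd* and -0.46 to 0.85 for *Scd1*. The cause was not tested. Without WT replicate 2, the log2 fold changes of all 10 markers against WT were positive in *Mtm1* KO, *Mtm1* KO + TAM and WT + TAM. Called were 5, 4 and 0 of them, where 263 of 15123, 731 of 15330 and 9 of 14841 genes were called. Only 2 WT libraries, replicates 3 and 4, then remain, and these comparisons share them. They are the 2 lowest of the 14 libraries for 9 of the 10 markers.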
